A study of Mus musculus with 12 samples.

Results

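The NF-κB genes described here are the 4 subunit genes Nfkb1, Nfkb2, Rela and Relb, the 4 IκB genes Nfkbia, Nfkbib, Nfkbie and Nfkbiz, the A20 gene Tnfaip3 and the IκB kinase gene Ikbkb. They were taken by symbol, and these 10 genes were found once each among the 24770 genes of the deposited table. All 10 passed the filter on low values, which 12311 genes passed. RNA was measured in 12 libraries of GC-2, a mouse cell line that the labels call wild type and type B spermatogonia, with 3 libraries in each of 4 groups. The groups were MLN4924 with hypoxia, MLN4924 with normoxia, DMSO with hypoxia and DMSO with normoxia. MLN4924 was used at 1 μM with DMSO as its solvent control, hypoxia was 1% O2, and each condition lasted 24 h. All groups came from the same line grown in serum, and no cytokine or other NF-κB stimulus is named in the labels. The series title places the work in the question of whether blocking neddylation adds to the apoptosis that hypoxia causes. Replicates are biological ones, per the series text.

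NF-κB transcription factors are dimers of REL-family subunits that IκB proteins hold inactive, mostly in the cytoplasm. When the IκB kinase complex phosphorylates an IκB protein, the SCF ligase with the F-box protein β-TrCP tags it with ubiquitin for the proteasome, and the freed dimer acts on its target genes. That ligase has the cullin CUL1 as its scaffold and needs NEDD8 on the cullin for activity. MLN4924 inhibits the NEDD8-activating enzyme, so IκB proteins are among the substrates of the ligases it switches off. Nfkbia, Nfkbie and Tnfaip3 are themselves NF-κB target genes and act as negative feedback. The libraries measured RNA only, so the amount of IκB protein and the position of the subunits in the cell were not measured.

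The 4 promoter windows below are shown because they hold the DNA sequence by which NF-κB is known to act on its own feedback genes. Each runs from 250 bases before to 50 bases after the transcription start in RefSeq on GRCm38.p6, is written 5′ to 3′ on the gene's strand, and has matches to the κB consensus in capitals, searched on both strands. Windows were found for 6 of the 10 genes, and 4 of these 6 had a match in at least 1 window. Of all 32851 windows of this length, 2779 held a match, or 8.46%. That share is per window while the 4 of 6 is per gene, and Nfkb2 and Tnfaip3 had more than 1 window, so the figures are not alike. The Nfkb2 window lies at chr19:46304487-46304786 on the plus strand, the Nfkbia window at chr12:55492598-55492897 on the minus strand, the Nfkbie window at chr17:45555450-45555749 on the plus strand and the Tnfaip3 window at chr10:19015361-19015660 on the minus strand.
Nfkb2: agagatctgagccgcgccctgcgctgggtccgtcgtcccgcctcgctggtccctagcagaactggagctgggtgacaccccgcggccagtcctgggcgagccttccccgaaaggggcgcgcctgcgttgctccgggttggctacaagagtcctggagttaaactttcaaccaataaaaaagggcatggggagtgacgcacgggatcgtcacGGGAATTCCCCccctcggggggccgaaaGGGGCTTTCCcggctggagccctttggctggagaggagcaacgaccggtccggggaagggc
Nfkbia: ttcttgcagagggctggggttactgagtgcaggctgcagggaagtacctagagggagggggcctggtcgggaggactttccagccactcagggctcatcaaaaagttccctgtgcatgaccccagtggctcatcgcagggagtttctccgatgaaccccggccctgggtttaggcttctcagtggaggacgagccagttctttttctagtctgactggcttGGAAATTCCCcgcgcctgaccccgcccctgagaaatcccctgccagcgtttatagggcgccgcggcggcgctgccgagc
Nfkbie: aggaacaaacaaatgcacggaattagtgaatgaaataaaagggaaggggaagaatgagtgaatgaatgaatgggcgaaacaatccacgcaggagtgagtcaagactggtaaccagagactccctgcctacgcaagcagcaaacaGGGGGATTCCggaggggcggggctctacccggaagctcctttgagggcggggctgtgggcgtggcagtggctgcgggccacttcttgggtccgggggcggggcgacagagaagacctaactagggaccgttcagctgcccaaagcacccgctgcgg
Tnfaip3: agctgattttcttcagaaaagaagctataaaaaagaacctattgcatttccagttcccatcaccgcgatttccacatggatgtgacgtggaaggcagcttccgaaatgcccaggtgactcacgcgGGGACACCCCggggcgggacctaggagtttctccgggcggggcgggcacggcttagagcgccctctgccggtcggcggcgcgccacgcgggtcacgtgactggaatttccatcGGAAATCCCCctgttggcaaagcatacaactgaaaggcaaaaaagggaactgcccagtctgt

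In the Nfkb2 window the capitals cover 2 stretches, of which GGGAATTCCC, 39 bases before the start, reads the same on both strands, overlaps GGGGAATTCC of the minus strand by all but 1 base, and is followed by GGGGCTTTCC 11 bases before the start. Nfkbia has GGGAATTTCC on the strand opposite to the gene, 29 bases before the start. Nfkbie has GGGGGATTCC 106 bases before the start. Tnfaip3 has GGGACACCCC 125 bases before the start, whose other strand, GGGGTGTCCC, also matches, and GGGGATTTCC on the opposite strand 12 bases before the start. Both further windows found for Nfkb2 also held matches and a second window of Tnfaip3 held none, and these are not shown. The windows found for Rela and Nfkbib held no match, which says only that these letters are not in those windows. No window was found for Nfkb1, Relb, Nfkbiz and Ikbkb. A match is a description of the sequence, and binding was not measured.

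Values are FPKM, the fragments assigned to a gene scaled for transcript length and for the number of mapped fragments, as the authors computed them. Library totals ran from 530452 to 633597 FPKM, and 11180 to 11644 genes per library reached 1 FPKM. DMSO hypoxia replicate 1 stood apart, with the highest total, a mean Spearman correlation of 0.926 with its own group against 0.949 or more for each other library, and values that ran lower the longer the transcript (Spearman's rho of −0.478 across genes, which are not independent). In that library Rela and Tnfaip3 were low, at the 4.66th and 6.25th percentiles of all tested genes for its difference from the other two, and Nfkbia and Relb were high, at the 87.6th and 98.0th, with Relb set by the 0 in replicate 3. The other 6 genes were between percentiles 20.3 and 51.7. The part of transcript length in the values of the 10 genes was not tested. Of 12 listed spermatogonial markers, 8 were in the table and 2, Gfra1 and Uchl1, averaged at least 1 FPKM in every group, with the list summing to 12.2–26.1 FPKM, while Kit, Ddx4 and Nanos3 were near 0. The 8 fibroblast or peritubular markers in the table, 6 of them at 1 FPKM or more, summed to 2044–2100 FPKM in MLN4924 hypoxia, 1649–1678 FPKM in MLN4924 normoxia, 2532–2639 FPKM in DMSO hypoxia and 1961–1970 FPKM in DMSO normoxia, with no overlap between groups. Of the 6 tested, 1 rose and 3 fell under MLN4924 at each oxygen level, 3 rose and 0 fell under hypoxia in MLN4924, and 2 rose and 2 fell under hypoxia in DMSO. The shares of all tested genes that rose and fell under MLN4924 were 9.33% and 10.7% in normoxia, and 12.2% and 13.3% in hypoxia. Under hypoxia they were 11.7% and 16.5% in MLN4924, and 13.8% and 19.4% in DMSO. The defining germ cell markers were largely absent from a line labelled as spermatogonia. Of the 8 macrophage and leukocyte markers listed, only Cd68 and Cd14 averaged 1 FPKM or more, and the list summed to 12.7–14.5 FPKM in MLN4924 hypoxia, 10.6–13.2 FPKM in MLN4924 normoxia, 9.28–11.1 FPKM in DMSO hypoxia and 10.4–13.7 FPKM in DMSO normoxia, with 1 of the 2 tested rising under MLN4924 in hypoxia and under hypoxia in MLN4924. The part of these markers in the results below was not tested.

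Groups were compared in limma on log2(FPKM + 1), with Benjamini-Hochberg adjusted p-values over all 12311 genes tested and a threshold of 0.05. Log2 fold changes are given with the standard error of that fit, and adding 1 makes those of low genes smaller than the ratio of their FPKM values. Rose and fell are used only of genes past the threshold. Counts at an unadjusted p under 0.05 have no share of all genes beside them, because that share was not worked out. In bulk RNA, fewer cells of a type and less RNA per cell cannot be told apart.

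Of the 14 calls made over the 4 pairwise comparisons, 11 were in the 4 IκB genes and 1 was in the 4 subunit genes. Tnfaip3 had 1 and Ikbkb had 1, and the shares of all tested genes called are given below for each comparison. Of the 14 calls, 6 were lost with at least 1 library left out. The standard error on the log2 scale was 0.33 for Rela and 0.51 for Relb, against 0.06 to 0.13 for the IκB genes. The split of calls therefore does not show that the subunit genes changed less. Under hypoxia in DMSO, 0 of the 10 genes rose and 2 fell, where 13.8% of all tested genes rose and 19.4% fell. At an unadjusted p under 0.05, 1 of the 10, Tnfaip3, was higher there. Under MLN4924 in normoxia, 2 rose and 1 fell, against 9.33% and 10.7% of all genes. Under MLN4924 in hypoxia, 2 rose and 3 fell, against 12.2% and 13.3%. Under hypoxia in MLN4924, 0 rose and 4 fell, against 11.7% and 16.5%, and none of the 10 was higher at an unadjusted p under 0.05. With so few genes, 1 more or less moves such a share by 10 points, so these counts are a description of the list and not a result about it. In the same order of comparisons, the 2 groups did not overlap in FPKM for 3, 6, 6 and 7 of the 10 genes, beside 45.2%, 48.5%, 38.0% and 53.3% of all tested genes. The median log2 fold change of the 10 genes was −0.05, −0.02, −0.11 and −0.20 in these 4 comparisons, beside −0.08, −0.03, −0.01 and −0.05 for all tested genes. The comparisons share libraries, so their values are not independent of each other.

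**Figure D1:**
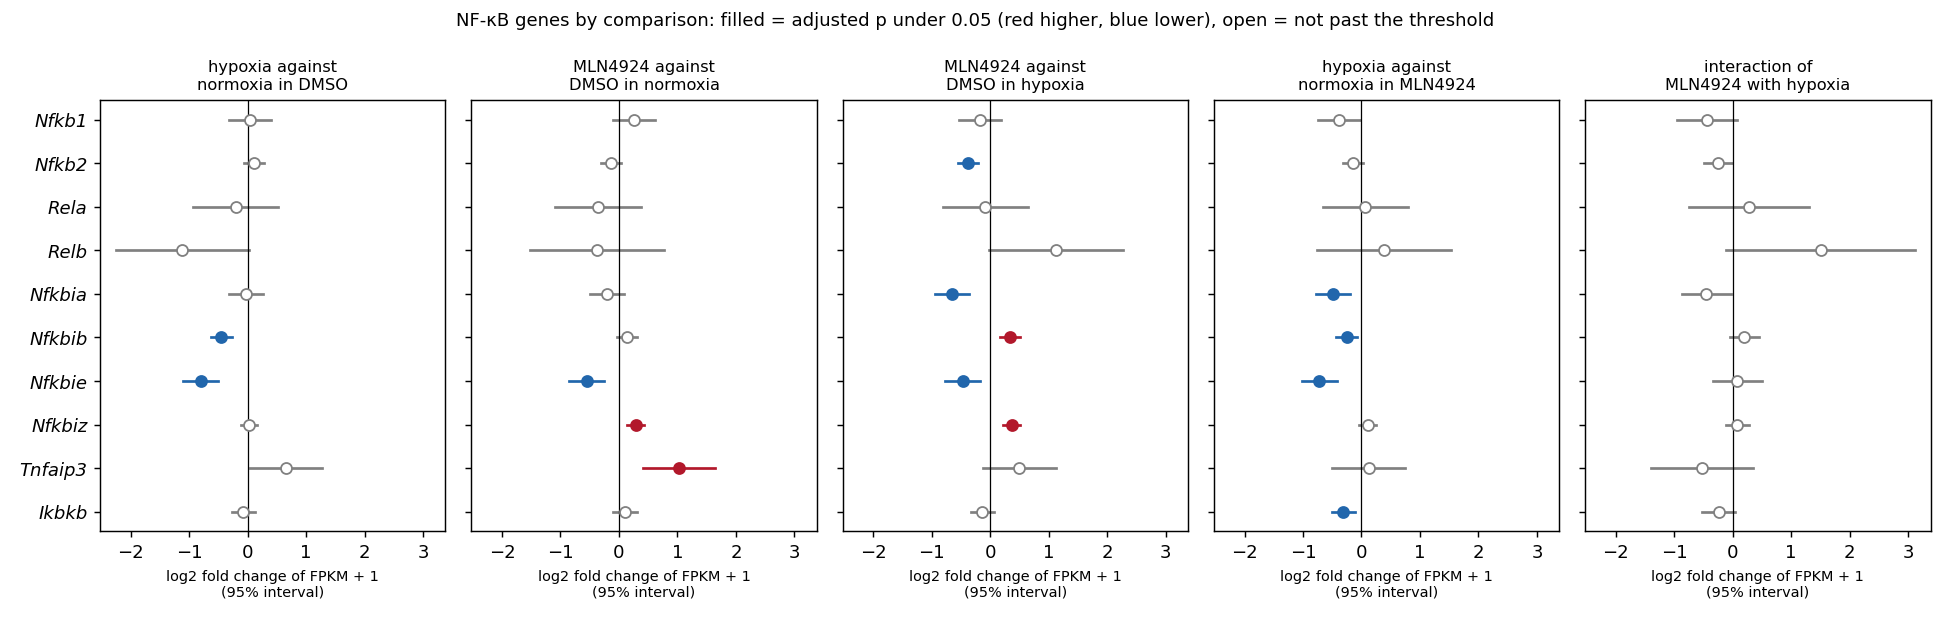
Log2 fold change of FPKM + 1 (x axis) with its 95% interval for the 10 NF-κB genes (rows) in each of the 5 comparisons (panels). Filled points passed an adjusted p of 0.05 in limma, red for higher and blue for lower: these are 2, 3, 5 and 4 genes in the first 4 panels and 0 in the interaction panel.

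Among the subunit genes, Nfkb2 changed in 1 comparison and Nfkb1, Rela and Relb did not pass the test in any. Nfkb2, which encodes the precursor protein of the non-canonical pathway, had the highest level of the 10 genes. Its values were 34.9, 38.8 and 34.4 FPKM in MLN4924 hypoxia libraries, 40.9, 37.3 and 41.2 FPKM in MLN4924 normoxia libraries, 45.5, 49.0 and 47.2 FPKM in DMSO hypoxia libraries, and 40.5, 48.3 and 43.0 FPKM in DMSO normoxia libraries. Every MLN4924 hypoxia library was below every DMSO hypoxia library, while each neighbouring pair in the order of group means overlapped. Nfkb2 fell under MLN4924 in hypoxia, with 36.0 ± 2.39 FPKM in MLN4924 hypoxia and 47.2 ± 1.76 FPKM in DMSO hypoxia (SD, n = 3 each), a log2 fold change of −0.38 ± 0.08 (adjusted p = 0.00471, limma). In normoxia the same comparison gave −0.14 with a 95% interval of −0.31 to 0.03 (adjusted p = 0.250, limma). The difference between these 2 effects, the interaction, was −0.24 ± 0.11 with an adjusted p of 0.328 in limma and an unadjusted p of 0.0460.

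Rela encodes the main activating subunit of the canonical pathway, and its libraries were too scattered for any comparison to be decided. Its values were 23.4, 16.5 and 24.2 FPKM in MLN4924 hypoxia libraries, 16.5, 19.7 and 24.8 FPKM in MLN4924 normoxia libraries, 11.6, 28.8 and 32.8 FPKM in DMSO hypoxia libraries, and 30.3, 21.5 and 27.0 FPKM in DMSO normoxia libraries. All 4 groups overlapped, and the lowest of the 12 values was that of DMSO hypoxia replicate 1, the library that stood apart. The log2 fold change under MLN4924 in hypoxia was −0.08 with a 95% interval of −0.81 to 0.65, and without that library it was −0.53 (adjusted p = 0.0774, limma). Under hypoxia in DMSO it was −0.21 (adjusted p = 0.656, limma), and without that library it was 0.23 (adjusted p = 0.406), the other direction.

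Nfkb1 encodes the precursor of the subunit that most often pairs with RELA. It averaged 18.5 ± 1.82 FPKM in MLN4924 hypoxia, 24.7 ± 3.97 FPKM in MLN4924 normoxia, 21.4 ± 5.56 FPKM in DMSO hypoxia and 20.3 ± 0.611 FPKM in DMSO normoxia (SD, n = 3 each). The 3 MLN4924 hypoxia libraries, at 16.4–19.7 FPKM, were all below the 3 MLN4924 normoxia libraries, at 20.8–28.8 FPKM. That difference was −0.39 ± 0.16 on the log2 scale and did not pass (adjusted p = 0.101, limma), though it did in the fits without DMSO hypoxia replicate 1 (adjusted p = 0.0482) and without DMSO hypoxia replicate 3 (adjusted p = 0.0302), which enter only through the shared spread. It also passed with array weights (adjusted p = 0.0381) and with only the libraries compared (adjusted p = 0.0490).

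Relb, the partner of the processed Nfkb2 product, was lower than the other subunit genes at 0–6.50 FPKM. It had 4.87, 6.50 and 5.11 FPKM in MLN4924 hypoxia libraries, 2.99, 4.83 and 4.20 FPKM in MLN4924 normoxia libraries, 3.56, 4.70 and 0.00 FPKM in DMSO hypoxia libraries, and 5.24, 4.87 and 6.23 FPKM in DMSO normoxia libraries. All 3 DMSO hypoxia values were below the DMSO normoxia values and below the MLN4924 hypoxia values, and 1 of them, in replicate 3, was listed at 0. The log2 fold changes were −1.12 ± 0.51 under hypoxia in DMSO (adjusted p = 0.120, limma) and 1.12 ± 0.51 under MLN4924 in hypoxia (adjusted p = 0.137). Without DMSO hypoxia replicate 2, which leaves the library listed at 0 as 1 of 2, these were −1.59 (adjusted p = 0.0329) and 1.60 (adjusted p = 0.0404). With array weights they were −1.99 (adjusted p = 0.00597) and 1.97 (adjusted p = 0.00919). Without replicate 3 they shrank to −0.33 and 0.34, so this pattern rested on 1 library.

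**Figure D2:**
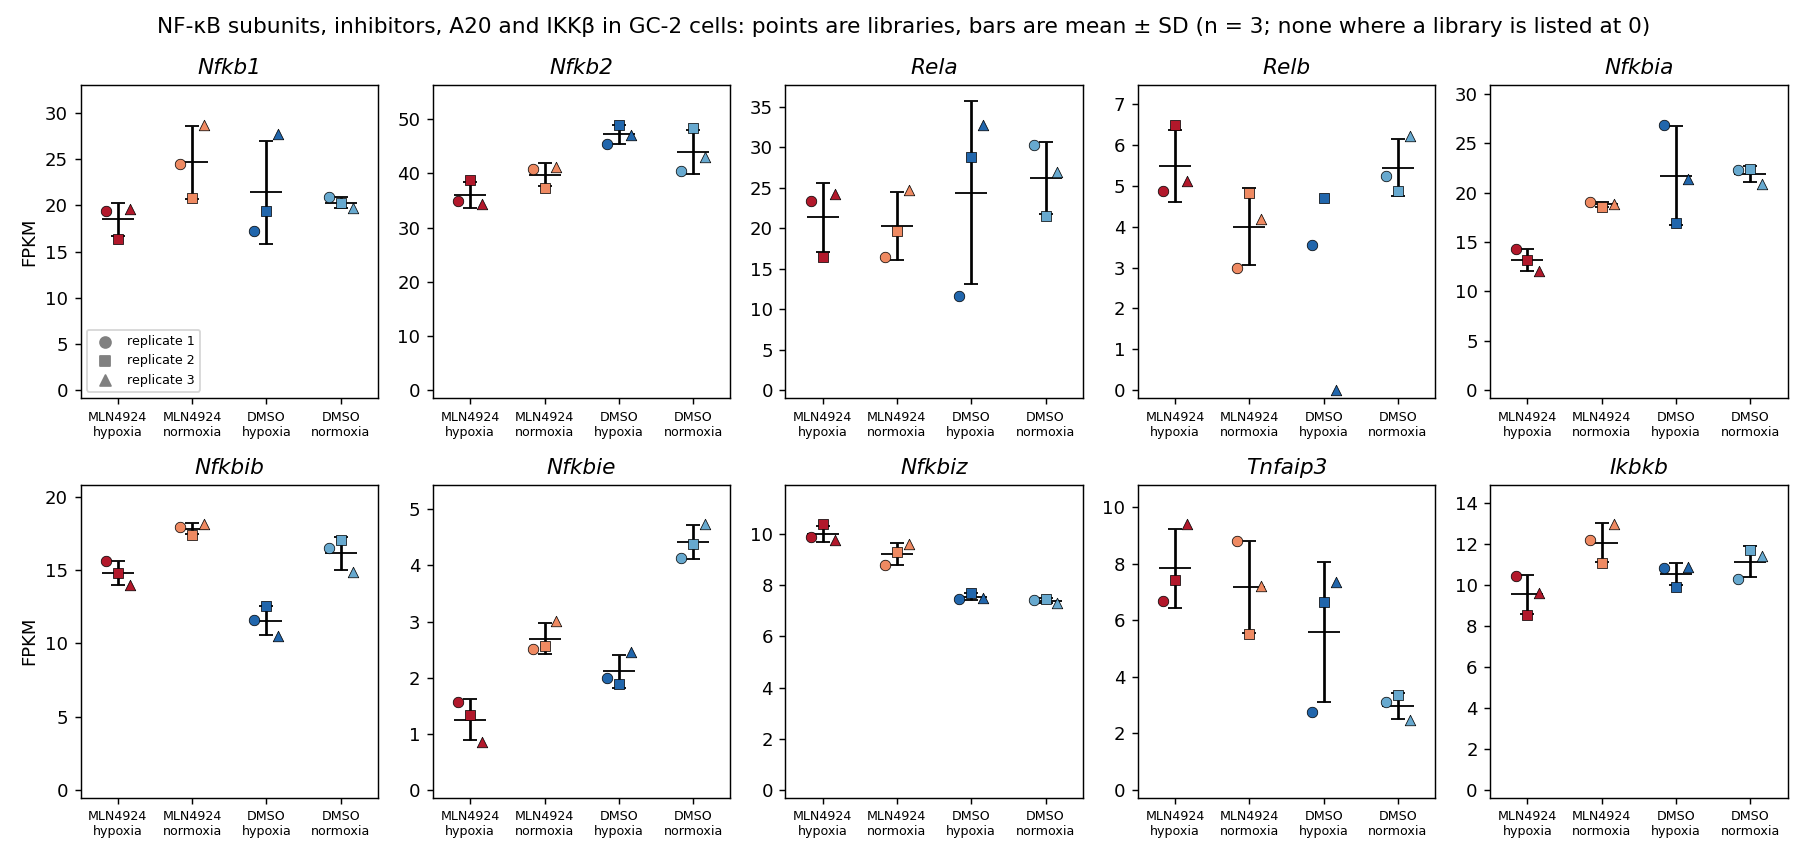
FPKM (y axis, from 0) of the 10 NF-κB genes in each of the 12 libraries by group (x axis), where shapes are replicate numbers and bars are mean ± SD of 3 libraries, left out for Relb in DMSO hypoxia because 1 library is listed at 0. Nfkbie stands at 0.86–1.57 FPKM in MLN4924 hypoxia and at 4.14–4.73 FPKM in DMSO normoxia, and Nfkbiz is higher in all 6 MLN4924 libraries than in the 6 DMSO libraries.

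The IκB genes did not move together. Nfkbie fell in all 4 pairwise comparisons, Nfkbia fell in the 2 comparisons that involve MLN4924 hypoxia, Nfkbib fell under hypoxia and rose under MLN4924 in hypoxia, and Nfkbiz rose under MLN4924 at both oxygen levels. With only the libraries compared, none of the 4 IκB genes passed under MLN4924 in hypoxia (adjusted p of 0.0513 to 0.136, limma). Over all 3 differences from DMSO normoxia at once, the adjusted p of the limma F-test was 1.56e-04 for Nfkbie, 6.74e-04 for Nfkbib, 9.50e-04 for Nfkbiz and 0.00420 for Nfkbia. The values for the other genes were 0.00766 for Nfkb2, 0.0190 for Tnfaip3, 0.0618 for Ikbkb, 0.216 for Relb, 0.233 for Nfkb1 and 0.755 for Rela.

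Nfkbie encodes IκBε, an inducible inhibitor that acts as delayed feedback on RELA and c-Rel dimers. It had 1.57, 1.33 and 0.86 FPKM in MLN4924 hypoxia libraries, 2.51, 2.56 and 3.01 FPKM in MLN4924 normoxia libraries, 2.00, 1.88 and 2.45 FPKM in DMSO hypoxia libraries, and 4.14, 4.38 and 4.73 FPKM in DMSO normoxia libraries. No pair of groups overlapped, and the order of the means was DMSO normoxia, MLN4924 normoxia, DMSO hypoxia and MLN4924 hypoxia. It was the only one of the 10 genes with all neighbours in that order separate. The share of all tested genes with such an order was not worked out, so this is a description only. Under hypoxia Nfkbie fell by 0.80 ± 0.13 on the log2 scale in DMSO (adjusted p = 0.00127, limma) and by 0.72 ± 0.13 in MLN4924 (adjusted p = 0.00278). As ratios of mean FPKM these were 0.478 and 0.465. Under MLN4924 it fell by 0.55 ± 0.13 in normoxia (adjusted p = 0.0157) and by 0.47 ± 0.13 in hypoxia (adjusted p = 0.0267), as ratios 0.610 and 0.594.

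The interaction for Nfkbie was 0.08 with a 95% interval of −0.34 to 0.50 (adjusted p = 0.866, limma), so its hypoxia effects with and without MLN4924 were not shown to differ. Both hypoxia results kept their call with any 1 library left out. The fall under MLN4924 in normoxia was lost without MLN4924 normoxia replicate 1 (adjusted p = 0.0593), MLN4924 normoxia replicate 2 (0.0553) or DMSO normoxia replicate 3 (0.0610), with log2 values of −0.61 to −0.51 over all leave-one-out fits. The fall under MLN4924 in hypoxia was lost without MLN4924 hypoxia replicate 2 (adjusted p = 0.0516), MLN4924 hypoxia replicate 3 (0.0936) or DMSO hypoxia replicate 3 (0.0778).

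Nfkbia encodes IκBα, the inhibitor that is degraded and remade fastest. It had 14.3, 13.2 and 12.1 FPKM in MLN4924 hypoxia libraries, 19.1, 18.6 and 18.8 FPKM in MLN4924 normoxia libraries, 26.9, 16.9 and 21.4 FPKM in DMSO hypoxia libraries, and 22.3, 22.4 and 20.9 FPKM in DMSO normoxia libraries. The 3 MLN4924 hypoxia libraries were below all 9 others, and the DMSO hypoxia libraries spread across and beyond both normoxia groups, with replicate 1 the highest. Nfkbia fell under MLN4924 in hypoxia by 0.66 ± 0.13 on the log2 scale (adjusted p = 0.00489, limma), and without DMSO hypoxia replicate 1 by 0.50 (adjusted p = 0.00312). It also fell under hypoxia in MLN4924, by 0.48 ± 0.13 (adjusted p = 0.0202). In normoxia the log2 fold change under MLN4924 was −0.21 with a 95% interval of −0.50 to 0.09 (adjusted p = 0.325), although its 3 MLN4924 values were below its 3 DMSO values, and with only the libraries compared it passed (adjusted p = 0.0134).

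The difference between the MLN4924 effects in hypoxia and in normoxia for Nfkbia was −0.45 ± 0.19, with an unadjusted p of 0.0359 and an adjusted p of 0.300 in limma. The fall under MLN4924 in hypoxia kept its call with any 1 library left out, between −0.82 and −0.50. The fall under hypoxia in MLN4924 lost it without MLN4924 hypoxia replicate 2 (adjusted p = 0.0549) or 3 (0.0746), or without MLN4924 normoxia replicate 1 (0.0598), 2 (0.0519) or 3 (0.0556), where the log2 values were −0.49 to −0.42.

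Nfkbib encodes IκBβ, an inhibitor that is degraded more slowly and is not known as a strong feedback gene. It had 15.7, 14.8 and 14.0 FPKM in MLN4924 hypoxia libraries, 17.9, 17.4 and 18.1 FPKM in MLN4924 normoxia libraries, 11.6, 12.5 and 10.5 FPKM in DMSO hypoxia libraries, and 16.5, 17.1 and 14.9 FPKM in DMSO normoxia libraries. DMSO hypoxia was lowest, with all 3 libraries below the 9 others, and MLN4924 normoxia was highest. Nfkbib fell under hypoxia in DMSO by 0.45 ± 0.08 on the log2 scale (adjusted p = 0.00165, limma) and rose under MLN4924 in hypoxia by 0.33 ± 0.08 (adjusted p = 0.0111), and both calls stayed with any 1 library left out.

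Under hypoxia in MLN4924, Nfkbib fell by 0.25 ± 0.08 (adjusted p = 0.0351, limma). This smaller change was lost without MLN4924 hypoxia replicate 2 (adjusted p = 0.0872) or 3 (0.122), MLN4924 normoxia replicate 1 (0.0945), 2 (0.0705) or 3 (0.0985), or DMSO normoxia replicate 1 (0.0510), with no filter on low values (0.0521), and under both other scalings, by size factors (0.0806) and to TPM (0.0947). The hypoxia effects in MLN4924 and in DMSO differed by 0.20 with a 95% interval of −0.05 to 0.44 (adjusted p = 0.464), so a smaller effect under MLN4924 was not shown.

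Nfkbia, Nfkbib and Nfkbie are the 3 IκB genes described here whose proteins hold dimers in the cytoplasm. Their summed FPKM was 31.6, 29.4 and 26.9 in MLN4924 hypoxia libraries, 39.5, 38.6 and 39.9 in MLN4924 normoxia libraries, 40.5, 31.3 and 34.3 in DMSO hypoxia libraries, and 42.9, 43.8 and 40.5 in DMSO normoxia libraries. MLN4924 hypoxia and both normoxia groups were separate in this sum, with 1 DMSO hypoxia library, replicate 2, just below the highest MLN4924 hypoxia library. The FPKM of Nfkbia per FPKM of Nfkbib was 0.891 ± 0.026 in MLN4924 hypoxia, 1.06 ± 0.015 in MLN4924 normoxia, 1.90 ± 0.499 in DMSO hypoxia and 1.36 ± 0.049 in DMSO normoxia (SD, n = 3 each). Both MLN4924 groups were below every DMSO library in this ratio, and DMSO hypoxia replicate 1 had the highest value, 2.32. The summed FPKM of the 4 subunit genes was 81.3 ± 2.82 in MLN4924 hypoxia, 88.8 ± 8.86 in MLN4924 normoxia, 95.8 ± 15.8 in DMSO hypoxia and 95.9 ± 1.01 in DMSO normoxia. These sums and the ratio describe RNA levels and were not tested.

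Nfkbiz encodes IκBζ, an atypical nuclear IκB protein that works with NF-κB at a subset of target genes. It had 9.88, 10.4 and 9.76 FPKM in MLN4924 hypoxia libraries, 8.78, 9.31 and 9.61 FPKM in MLN4924 normoxia libraries, 7.45, 7.70 and 7.50 FPKM in DMSO hypoxia libraries, and 7.44, 7.47 and 7.29 FPKM in DMSO normoxia libraries. All 6 MLN4924 libraries were above all 6 DMSO libraries, the DMSO groups overlapped, and the MLN4924 groups did not. Nfkbiz rose under MLN4924 by 0.36 ± 0.06 on the log2 scale in hypoxia (adjusted p = 0.00219, limma) and by 0.28 ± 0.06 in normoxia (adjusted p = 0.0101), and both calls stayed with any 1 library left out. Hypoxia gave 0.11 with a 95% interval of −0.04 to 0.25 in MLN4924 (adjusted p = 0.254) and 0.03 with an interval of −0.12 to 0.17 in DMSO (adjusted p = 0.785). The rises were small, 1.33-fold and 1.25-fold as ratios of mean FPKM.

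Tnfaip3 encodes A20, a ubiquitin-editing enzyme that shuts off signalling upstream of the IκB kinase. It had 6.68, 7.44 and 9.39 FPKM in MLN4924 hypoxia libraries, 8.79, 5.52 and 7.21 FPKM in MLN4924 normoxia libraries, 2.74, 6.65 and 7.34 FPKM in DMSO hypoxia libraries, and 3.11, 3.34 and 2.47 FPKM in DMSO normoxia libraries. The 3 DMSO normoxia libraries and DMSO hypoxia replicate 1 were low, and the other 8 libraries were at 5.52 FPKM or more. Tnfaip3 rose under MLN4924 in normoxia by 1.03 ± 0.28 on the log2 scale (adjusted p = 0.0258, limma), 2.41-fold as a ratio of mean FPKM. That call was lost without MLN4924 normoxia replicate 1 (adjusted p = 0.0945) or 3 (0.0734), or without DMSO normoxia replicate 1 (0.0633), 2 (0.0535) or 3 (0.0895), with log2 values of 0.89 to 1.18 over all leave-one-out fits.

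Under hypoxia in DMSO the log2 fold change of Tnfaip3 was 0.65 with a 95% interval of 0.03 to 1.27 and did not pass (adjusted p = 0.0980, limma). Without DMSO hypoxia replicate 1 it was 1.01 with an adjusted p of 0.00183. Under MLN4924 in hypoxia the log2 fold change was 0.50 (adjusted p = 0.218), and without that library 0.13 (adjusted p = 0.614). The interaction was −0.53 ± 0.39 (adjusted p = 0.576), and without that library −0.89 (adjusted p = 0.0700).

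Ikbkb encodes IKKβ, the kinase that marks IκB proteins for degradation in the canonical pathway. It had 10.4, 8.56 and 9.63 FPKM in MLN4924 hypoxia libraries, 12.2, 11.1 and 13.0 FPKM in MLN4924 normoxia libraries, 10.9, 9.92 and 10.9 FPKM in DMSO hypoxia libraries, and 10.3, 11.7 and 11.4 FPKM in DMSO normoxia libraries. The 2 MLN4924 groups were separate from each other, and each neighbouring pair in the order of means overlapped. Ikbkb fell under hypoxia in MLN4924 by 0.31 ± 0.09 on the log2 scale (adjusted p = 0.0257, limma). The call was lost without MLN4924 hypoxia replicate 2 (adjusted p = 0.1001) or 3 (0.0620), without MLN4924 normoxia replicate 1 (0.0758) or 3 (0.0970), and under scaling by size factors (0.0510) or to TPM (0.0501). In DMSO the hypoxia effect was −0.07 with a 95% interval of −0.27 to 0.13, and the difference between the 2 effects was −0.24 with an interval of −0.52 to 0.04 (adjusted p = 0.433).

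**Figure D3:**
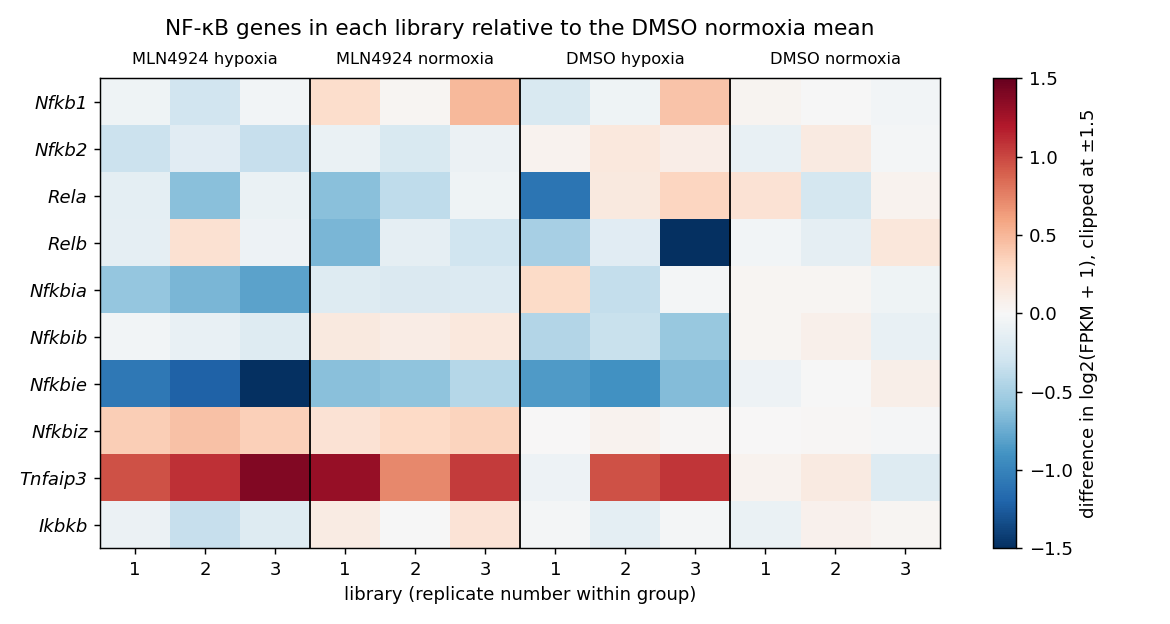
Difference in log2(FPKM + 1) of each NF-κB gene (rows) in each library (columns, by group and replicate number) from the mean of the 3 DMSO normoxia libraries, with the colour scale clipped at ±1.5. Tnfaip3 is raised in 8 of the 9 libraries outside DMSO normoxia and not in DMSO hypoxia replicate 1, and Nfkbie is lowered in all 9.

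No interaction passed the test for any of the 10 genes, where 0.958% of all tested genes rose and 0.926% fell. At an unadjusted p under 0.05 in limma there were 2, Nfkb2 and Nfkbia, both with a more negative MLN4924 log2 fold change in hypoxia than in normoxia. These were −0.38 against −0.14 for Nfkb2 and −0.66 against −0.21 for Nfkbia. The share of all tested genes at that unadjusted threshold was not worked out, so the count of 2 is a description only. Of the 14 pairwise calls over the 10 genes, 8 stayed with each of the 12 libraries left out in turn and 6, named above, were lost with at least 1.

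The other pathway genes were described from 7 lists of 138 genes, chosen with results of these data known. Of these genes 130 were in the table and 109 were tested. Under hypoxia in DMSO, 14 rose and 25 fell, or 12.8% and 22.9% of those tested, beside 13.8% and 19.4% of all genes. Under MLN4924 in normoxia, 11 rose and 6 fell, or 10.1% and 5.5%, beside 9.33% and 10.7% of all genes. Under MLN4924 in hypoxia, 16 rose and 13 fell, or 14.7% and 11.9%, beside 12.2% and 13.3%. Under hypoxia in MLN4924, 7 rose and 25 fell, or 6.42% and 22.9%, beside 11.7% and 16.5%. Without DMSO hypoxia replicate 1 the counts that rose and fell were 13 and 33, 17 and 14, 18 and 13, and 11 and 34 in the same order of comparisons. The shares of all genes that rose and fell in that fit were 14.8% and 23.9%, 16% and 18.2%, 16.8% and 15.7%, and 17.9% and 24.7%.

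Among the other subunits and IκB proteins, 5 genes were tested and Bcl3 and Rel changed. Bcl3, an atypical IκB protein that pairs with the processed subunits, averaged 5.32 ± 0.340 FPKM in MLN4924 hypoxia, against 7.87 ± 0.370 FPKM in DMSO hypoxia and 5.73 ± 0.396 FPKM in DMSO normoxia (SD, n = 3 each). It fell under MLN4924 in hypoxia by 0.49 ± 0.10 on the log2 scale (adjusted p = 0.00498, limma) and rose under hypoxia in DMSO by 0.40 ± 0.10 (adjusted p = 0.0111). Rel, the gene of c-Rel, was under the level set for naming genes and is given because it is the remaining subunit. It rose under MLN4924 in hypoxia by 0.37 ± 0.10 (adjusted p = 0.0215) and fell under hypoxia in DMSO by 0.32 ± 0.10 (adjusted p = 0.0321, limma). The first call was lost without any 1 of the 3 MLN4924 hypoxia libraries (adjusted p up to 0.0619) and the second without any 1 of the 3 DMSO normoxia libraries (adjusted p up to 0.0953).

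Among 11 genes of the IκB kinase complex and of the kinases upstream of it with their adaptors, 0 rose and 0 fell under MLN4924 in normoxia. The shares of all genes were 9.33% and 10.7%. At an unadjusted p under 0.05, 1 of the 11 was higher and 3 were lower there, with no share of all genes worked out at that threshold. Without DMSO hypoxia replicate 1, again only through the shared spread, 1 rose and 3 fell there, beside 16% and 18.2% of all genes. Under MLN4924 in hypoxia 2 fell, Tab1 and Tbk1, beside 13.3% of all genes. Tab1, an adaptor of the kinase TAK1, averaged 10.6 ± 0.121 FPKM in MLN4924 hypoxia and 14.9 ± 0.330 FPKM in DMSO hypoxia, a fall of 0.46 ± 0.07 on the log2 scale that stayed called with any 1 library left out. Tbk1, a kinase related to those of the complex, fell by 0.26 ± 0.07, and this call was lost without MLN4924 hypoxia replicate 1 or 3 or DMSO hypoxia replicate 3, with an adjusted p of up to 0.0702. Of 22 adaptors and ubiquitin ligases tested, 1 rose and 4 fell under hypoxia in DMSO, and 2 rose and 4 fell under hypoxia in MLN4924. The shares of all genes were 13.8% and 19.4% in DMSO and 11.7% and 16.5% in MLN4924. Myd88, the adaptor of most Toll-like receptors, fell under hypoxia to 12.9 ± 0.308 FPKM in MLN4924 hypoxia, against 23.7 ± 0.836 FPKM in MLN4924 normoxia, and to 12.8 ± 0.198 FPKM in DMSO hypoxia, against 24.5 ± 1.10 FPKM in DMSO normoxia. Its log2 fold changes were −0.82 ± 0.06 and −0.88 ± 0.06, both called with any 1 library left out. Ripk2, the kinase of NOD receptor signalling, rose under MLN4924 by 0.50 ± 0.06 in normoxia and by 0.41 ± 0.06 in hypoxia.

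Of 15 brakes and deubiquitinases tested, 2 rose and 3 fell under hypoxia in DMSO, beside 13.8% and 19.4% of all genes. Under MLN4924 in hypoxia 0 rose and 3 fell, beside 12.2% and 13.3% of all genes. Those 3 calls were lost in 10 leave-one-out fits for Itch, in 2 for Tax1bp1 and in 1 for Tollip. At an unadjusted p under 0.05 in limma, 1 of the 15 was higher under MLN4924 in hypoxia, with no share of all genes worked out at that threshold. Otulin, which cleaves linear ubiquitin chains, fell under hypoxia in MLN4924 by 0.47 ± 0.09 on the log2 scale, with 17.7 ± 0.543 FPKM in MLN4924 hypoxia and 24.9 ± 1.49 FPKM in MLN4924 normoxia. Of 13 receptors and ligands tested, 1 rose and 6 fell under hypoxia in DMSO, beside 13.8% and 19.4% of all genes. Tlr2, a Toll-like receptor, fell there by 0.73 ± 0.08 and rose under MLN4924 in hypoxia by 0.43 ± 0.08, with 9.05 ± 0.578 FPKM in MLN4924 hypoxia, against 6.46 ± 0.496 FPKM in DMSO hypoxia. Its interaction of 0.55 ± 0.12 had an adjusted p of 0.0448 in limma and was lost in 10 of the 12 leave-one-out fits, with an adjusted p of up to 0.129. Il33, a cytokine of the interleukin-1 family, did the reverse: it fell under MLN4924 in hypoxia by 0.92 ± 0.20 and rose under hypoxia in DMSO by 1.20 ± 0.20.

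Of 15 tested genes of the IκB ligase and of neddylation, 0 rose and 0 fell under MLN4924 in normoxia, beside 9.33% and 10.7% of all genes. At an unadjusted p under 0.05, 2 were higher and 1 was lower there, with no share of all genes worked out at that threshold. The count of 0 rested on DMSO hypoxia replicate 1, which enters only through the shared spread. Without it 2 rose and 1 fell, beside 16% and 18.2% of all genes. Among them were Nae1, a subunit of the enzyme that MLN4924 inhibits (0.35, adjusted p = 0.00286, limma), and Rbx1, the RING subunit of the ligase (−0.28, adjusted p = 2.24e-04). With all libraries, 1 rose and 2 fell under MLN4924 in hypoxia, beside 12.2% and 13.3% of all genes. Nae1 rose there by 0.40 ± 0.11 (adjusted p = 0.0274, limma), a call lost in 4 leave-one-out fits. Rbx1 fell there by 0.45 ± 0.12 (adjusted p = 0.0216), lost in 3. Cul1, the ligase's scaffold, fell under hypoxia by 0.37 ± 0.06 on the log2 scale in MLN4924 and by 0.28 ± 0.06 in DMSO, with 28.1 ± 1.46 FPKM in MLN4924 hypoxia, 36.8 ± 1.90 FPKM in MLN4924 normoxia, 31.8 ± 1.01 FPKM in DMSO hypoxia and 38.8 ± 0.250 FPKM in DMSO normoxia. Btrc and Fbxw11, the genes of the 2 β-TrCP proteins, are outside the rule for names and are given because they recognise IκB; neither passed in any comparison. Btrc averaged 10.9 ± 0.617 FPKM in MLN4924 hypoxia, 11.0 ± 0.835 FPKM in MLN4924 normoxia, 11.8 ± 0.501 FPKM in DMSO hypoxia and 11.3 ± 1.09 FPKM in DMSO normoxia.

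Of 40 listed NF-κB target genes outside the 10, 38 were in the table and 28 were tested, and they moved in both directions. Under hypoxia in DMSO 7 rose and 8 fell, and under hypoxia in MLN4924 3 rose and 9 fell. Under MLN4924 7 rose and 3 fell in normoxia, and 8 rose and 3 fell in hypoxia. As shares of the 28 these were 25.0% and 28.6%, 10.7% and 32.1%, 25.0% and 10.7%, and 28.6% and 10.7%, beside 13.8% and 19.4%, 11.7% and 16.5%, 9.33% and 10.7%, and 12.2% and 13.3% of all genes. Without DMSO hypoxia replicate 1 the counts that rose and fell were 6 and 11, 4 and 11, 8 and 5, and 9 and 2, beside 14.8% and 23.9%, 17.9% and 24.7%, 16% and 18.2%, and 16.8% and 15.7% of all genes. The median log2 fold change of the 28 genes was −0.22 under hypoxia in MLN4924, −0.12 under hypoxia in DMSO, 0.05 under MLN4924 in hypoxia and 0.11 under MLN4924 in normoxia. Many of these genes also answer to other factors, so the list does not measure NF-κB activity.

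Of the 7 chemokine genes tested on the list, a subset picked out after the values were seen, 6 fell under hypoxia in DMSO and 5 in MLN4924. The shares of all genes that fell were 19.4% and 16.5%. Under MLN4924, 1 of the 7 rose and 2 fell in normoxia, beside 9.33% and 10.7% of all genes. In hypoxia 2 rose and 1 fell under MLN4924, beside 12.2% and 13.3%. Ccl2, which attracts monocytes, averaged 12.4 ± 2.00 FPKM in MLN4924 hypoxia, 61.3 ± 2.04 FPKM in MLN4924 normoxia, 16.3 ± 1.77 FPKM in DMSO hypoxia and 87.1 ± 5.55 FPKM in DMSO normoxia (SD, n = 3 each). Its log2 fold change under hypoxia was −2.22 ± 0.11 in MLN4924 and −2.35 ± 0.11 in DMSO. Ccl7, a related chemokine, fell under hypoxia by 1.87 ± 0.16 in MLN4924 and by 2.57 ± 0.16 in DMSO. Under MLN4924 in normoxia, Ccl7 fell by 0.79 ± 0.16 and Ccl2 by 0.50 ± 0.11. Ccl2 also fell under MLN4924 in hypoxia, by 0.37 ± 0.11, a call lost in 3 leave-one-out fits. Cxcl10, which attracts T cells and also answers to interferon, averaged 60.6 ± 2.87 FPKM in MLN4924 hypoxia, 149 ± 6.38 FPKM in MLN4924 normoxia, 18.1 ± 3.24 FPKM in DMSO hypoxia and 95.3 ± 6.11 FPKM in DMSO normoxia. It rose under MLN4924 by 1.70 ± 0.10 in hypoxia and by 0.64 ± 0.10 in normoxia, and the difference of 1.06 ± 0.15 passed (adjusted p = 0.00665, limma).

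Ptgs2, Csf1 and Myc rose under MLN4924 at both oxygen levels. Ptgs2, which makes prostaglandins, averaged 65.9 ± 6.19 FPKM in MLN4924 hypoxia, 41.0 ± 7.72 FPKM in MLN4924 normoxia, 12.6 ± 4.60 FPKM in DMSO hypoxia and 6.53 ± 1.40 FPKM in DMSO normoxia. Its MLN4924 effect was 2.35 ± 0.24 on the log2 scale in hypoxia and 2.48 ± 0.24 in normoxia. Csf1, a macrophage growth factor, rose under MLN4924 by 1.53 ± 0.13 in hypoxia and by 1.05 ± 0.13 in normoxia, and Myc, a growth regulator, by 1.18 ± 0.13 and 1.45 ± 0.13. Ier3, an early stress response gene, rose under hypoxia by 1.77 ± 0.13 in MLN4924 and by 2.12 ± 0.13 in DMSO. Junb, an AP-1 subunit, averaged 138 ± 3.41 FPKM in MLN4924 hypoxia and 284 ± 25.2 FPKM in DMSO hypoxia, a fall of 1.03 ± 0.06, against a fall of 0.32 ± 0.06 under MLN4924 in normoxia, and the difference of −0.71 ± 0.09 passed (adjusted p = 0.00401, limma). The calls given here on Ccl7, Cxcl10, Ptgs2, Csf1, Myc, Ier3 and Junb stayed with any 1 library left out. So did those on Ccl2, except its fall under MLN4924 in hypoxia.

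**Figure D4:**
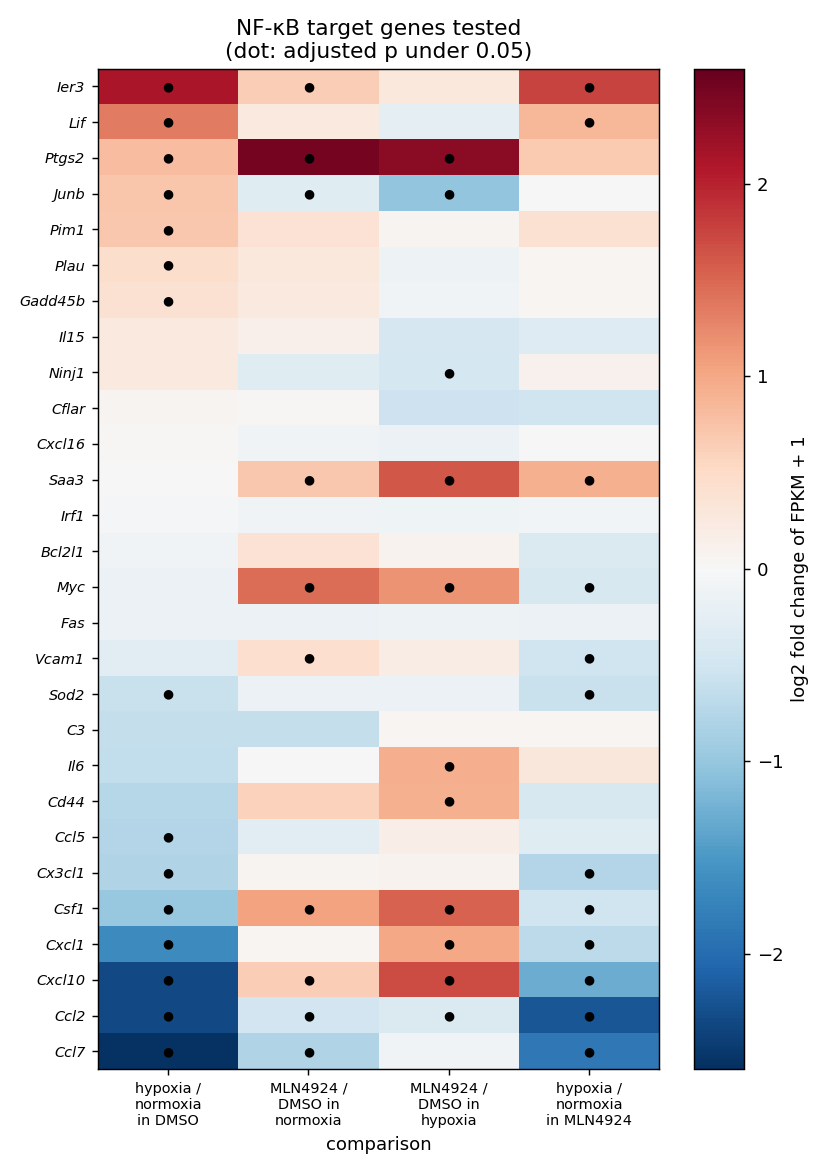
Log2 fold change of FPKM + 1 (colour) of the 28 tested NF-κB target genes (rows, ordered by the first column) in the 4 pairwise comparisons (columns), with a dot where the adjusted p was under 0.05. Ccl7, Ccl2, Cxcl10 and Cxcl1 at the bottom fall under hypoxia in DMSO, and Ptgs2, Myc and Csf1 are raised in both MLN4924 against DMSO columns. Ccl2 and Junb are lowered in both of those columns.

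For the 3 genes with the smallest F-test p, the genes most like them in pattern were taken as those with the smallest root mean square difference of centred log2(FPKM + 1) over the 12 libraries. For Nfkbie these were Fkbp14 (0.125), Mvp (0.137) and Slc30a1 (0.139). Fkbp14 averaged 7.997 FPKM in MLN4924 hypoxia, 13.8 FPKM in MLN4924 normoxia, 11.6 FPKM in DMSO hypoxia and 18.6 FPKM in DMSO normoxia, the same order of groups as Nfkbie. For Nfkbib they were Tut7 (0.0679), Rhoj (0.0716) and Ipo13 (0.0733), and for Nfkbiz they were Fen1 (0.0532), Ipo7 (0.0632) and Mtpn (0.0656). None of the 9 is on the pathway lists, but these hold only 109 of the 12311 tested genes, so this is not a result about the pathway.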

How the data were processed

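Libraries were made from total RNA (NEBNext Ultra RNA kit) and sequenced in pairs with reads of 150 nt, per the labels' protocols. The values are FPKM as deposited by the authors, and the submitters' processing notes name fastp, STAR, RSEM 1.3.3 and build mm39 without their roles. The annotation and the use of strand are not given in the sources used here. FPKM keep no read counts, so depth is unknown and no count test or counting interval was possible.

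Genes that reached 1 FPKM in 3 or more of the 12 libraries were fitted with limma 3.58.1 in R 4.3.3 on log2(FPKM + 1), with 1 mean per group, a spread shared by all 4 groups and an intensity trend. P-values are two-sided, and the fit was tested on simulated data. With 3 libraries a side, no exact permutation test could give a p under 0.1. All libraries were taken as GC-2 from their titles, although the cell type label counts up over the samples, and no 2 libraries were identical.

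The 10 genes and all lists were chosen with earlier results of these data known. Named list genes were up to 4 per list, direction and comparison with the largest change among those called that averaged 5 FPKM or more in the higher group, and the text gives a selection of them. Transcript lengths came from GENCODE for the preceding build, for 97.5% of tested genes. Alternatives were other pseudocounts (0.1 and 0.5), no filter, size-factor and TPM scaling, array weights, a replicate block, only the libraries compared, and each library left out.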

Additional observations from a re-analysis of the deposited data

How the results depend on the processing

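None of the 14 called log2 fold changes of the 10 genes reversed under any alternative run. With only the libraries compared, hypoxia against normoxia in DMSO gave 944 genes that rose and 1280 that fell, MLN4924 against DMSO in normoxia 1928 and 2140, and MLN4924 against DMSO in hypoxia 621 and 643. Of the 10 genes that fit called 2 that fell under MLN4924 in normoxia, Nfkbia (adjusted p = 0.0134) with Nfkbie, and 0 that rose and 1 that fell under MLN4924 in hypoxia, where Nfkbia (adjusted p = 0.0631, limma), Nfkbib (0.0883), Nfkbie (0.136) and Nfkbiz (0.0513) were lost. Array weights gave 2098 genes that rose and 2426 that fell under MLN4924 in normoxia, 2236 and 3103 under hypoxia in MLN4924, and 478 and 365 for the interaction, and made 4 further calls among the 10 genes: under hypoxia in DMSO 1 gene rose, Tnfaip3 (1.02, adjusted p = 0.00147), and Relb fell (−1.99, 0.00597), under MLN4924 in hypoxia Relb rose (1.97, 0.00919), and under hypoxia in MLN4924 Nfkb1 fell (−0.38, 0.0381). With no filter, 1 of the 10 rose under MLN4924 in normoxia, and 3 calls were lost, Tnfaip3 there (0.0548), Nfkbie under MLN4924 in hypoxia (0.0677) and Nfkbib under hypoxia in MLN4924 (0.0521). Scaling by size factors or to TPM left 2 of the 10 that fell under hypoxia in MLN4924, Nfkbia and Nfkbie. Size factors also moved the share of called genes that rose under hypoxia in DMSO to 52.0%, against 41.5% as deposited. The cause of these shifts was not tested.

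Uncalled values that changed sign were Nfkb1 (−0.00483, TPM), Rela (0.24, array weights), Nfkbia (0.030, size factors) and Nfkbiz (−0.022, TPM) under hypoxia in DMSO, and in the interaction Rela (−0.15, array weights) and Nfkbie (−0.041 with a pseudocount of 0.1, −0.019 with array weights).

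With each library left out in turn, genes that rose and fell ran from 773 to 1975 and from 875 to 2240 under MLN4924 in normoxia, those that rose from 1062 to 2199 under hypoxia in MLN4924, and those of the interaction from 42 to 406 and from 48 to 272. Each of these highest counts came without DMSO hypoxia replicate 1. Of the 10 genes, 1 to 5 fell under hypoxia in MLN4924, 0 to 1 fell and 1 to 2 rose under MLN4924 in normoxia, and 0 to 1 rose under hypoxia in DMSO. Uncalled values whose sign turned ranged as follows: Nfkb1 from −0.15 to 0.18 under hypoxia in DMSO and from −0.32 to 0.014 under MLN4924 in hypoxia. Nfkbia ran from −0.19 to 0.13 and Rela from −0.48 to 0.23 under hypoxia in DMSO. Rela also ran from −0.53 to 0.18 under MLN4924 in hypoxia, from −0.067 to 0.24 under hypoxia in MLN4924 and from −0.17 to 0.54 in the interaction. The Nfkbie interaction ran from −0.021 to 0.21 and Tnfaip3 under hypoxia in MLN4924 from −0.033 to 0.26.

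Same-numbered libraries did not deviate together, with correlations of −0.07 to 0.10 between their deviations from the group means, so the numbers were not taken as pairs. A replicate block lowered the interaction genes that rose to 56, and the Nfkbie fall under MLN4924 in hypoxia (adjusted p = 0.0529) did not pass; it changed no other call of the 10 genes. The list counts without DMSO hypoxia replicate 1 were added after the data had been seen. With unknown depth, values near or under 1 FPKM, such as Nfkbie in MLN4924 hypoxia, have a precision that only the spread of 3 libraries shows.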
